A study of Homo sapiens with 12 samples.

Results

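The Msi2 knockdown was set against its control shRNA in MIA PaCa-2 cells, a line established from a human pancreatic carcinoma. The comparison used 6 of the 12 RNA sequencing libraries of the study, 3 from cells given a lentiviral short hairpin RNA (shRNA) against MSI2 and 3 from cells given a scrambled one. Cells were sorted on the fluorescence of the virus 72 hours after infection. The Msi2 virus carried Tomato Red. For the control cells neither the colour nor the gate is given in the sources used here, and the same is true of the number of hairpins against MSI2 and of whether the libraries of a group came from separate infections. The p-values below therefore measure the spread between these libraries, which may be technical. In 3 further libraries an Msi1 shRNA (GFP virus) was given alone, and in 3 more both shRNAs were given and double-positive cells were sorted. Those 6 are used at the end, to test whether levels differed from those with the Msi1 shRNA and whether a change came back with the same Msi2 shRNA in other cells. Of 24528 genes in the deposited table, 15021 passed a low-count filter and were tested.

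MSI2 encodes Musashi-2, an RNA-binding protein that recognises short UAG-containing motifs, mainly in the 3′ untranslated regions (3′ UTRs) of mRNAs, and alters their translation and stability. Its paralog MSI1 is a marker of neural progenitors. In blood and epithelial cancers MSI2 is known for keeping cells in a stem-like state, with Numb, a Notch inhibitor, and MYC among the targets described. RNA sequencing measures the amount of a transcript and not its translation, so a target that changes only in translation is not seen here.

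The targeted transcript fell. MSI2 (gene ID 124540) stood at 15.1, 17.3 and 12.6 CPM (counts scaled to the library total and a common size of 1e+06) in the knockdown libraries, against 81.2, 80.7 and 86.3 CPM in the control libraries. Every knockdown library was far below every control library, a log2 change of -2.46 ± 0.09 (± SE; edgeR adjusted p = 3.8e-13), so that 1 MSI2 transcript in 5.51 remained. MSI1 (gene ID 4440), its paralog, was a low transcript at 7.001, 5.37 and 6.04 CPM in the knockdown libraries and 4.93, 4.53 and 4.13 CPM in the control libraries. The 2 groups did not overlap, but the rise was small, at log2 0.41 ± 0.13 (edgeR adjusted p = 0.0244). It did not pass without Msi2 knockdown replicate 1, without control replicate 2 or 3, or with libraries thinned to equal depth.

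Libraries were deep and uneven. Totals were 39692117 to 53014534 estimated counts in the knockdown and 10948191 to 35043671 in control, with control replicate 3 the shallowest. All pairs of replicates differed by more than counting noise (chi-square of 3.65 to 33.7 per degree of freedom), so none was a copy of another. Mitochondrially encoded genes took 5.71% to 7.48% of counts in the knockdown and 6.59% to 7.89% in control. The slope of log2 level on the GC content of a gene's transcript ran from -0.371 to -0.342 per 10 percentage points in the knockdown and from -0.419 to -0.384 in control, with no overlap, and log2 changes correlated weakly with GC content (Spearman's rho = 0.113 across genes). Its part in single changes was not tested, beyond a correction for GC content and length that left 2557 genes higher and 2128 lower. Replicates of the same number deviated together across the 2 groups (r = 0.184, 0.683 and 0.412), so a fit with the replicate number as a block is given where it changes a count. For replicate 1 this was weak, since control replicate 1 had r = 0.214 with Msi2 knockdown replicate 3. Genes of pancreatic acinar cells were at or near 0 (0.215 to 0.261 CPM summed in the knockdown and 0.164 to 0.392 CPM in control), whereas ductal markers, chiefly SOX9, summed to 218 to 231 CPM in the knockdown and 264 to 276 CPM in control.

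Changes were many and small. At an adjusted p below 0.05, edgeR's quasi-likelihood test called 2501 genes higher in the Msi2 knockdown (16.7% of those tested) and 2044 lower (13.6%), 30.3% in all. Among called genes the median size of the change was 0.348 on the log2 scale, and the median over all tested genes was -0.00214. A change of 2-fold or more was reached by 107 higher genes (0.712%) and 125 lower genes (0.832%). Most of these were scarce, for 54 of the 107 and 92 of the 125 stayed under 2 CPM in both groups, and 30 and 14 reached 10 CPM in one. Libraries of the 2 groups did not overlap for 20.8% of genes in the direction of a rise and 17.9% in that of a fall. The share called grew with the level of the gene, at 7.6% under 1 CPM, 26.6% from 1 to 10 CPM, 36.9% from 10 to 100 CPM and 39.1% above. With all libraries thinned to the 10948191 counts of the shallowest, 1108 genes were higher and 830 lower, and without control replicate 1 the counts were 1646 and 1367.

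**Figure D1:**
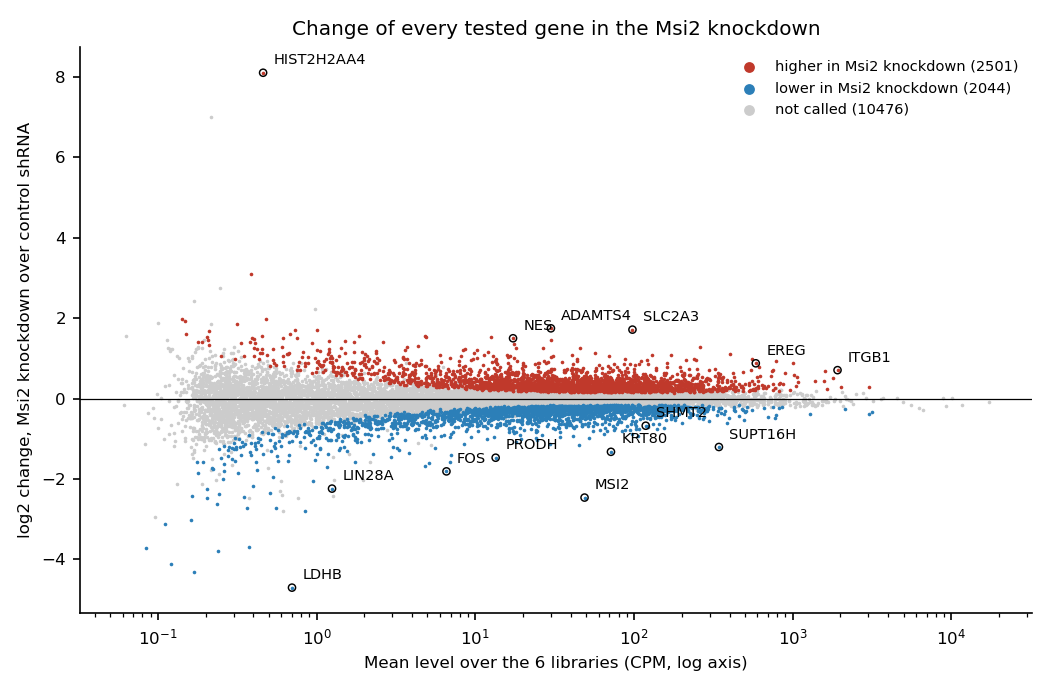
Change of all 15021 tested genes, as the log2 change of the Msi2 knockdown over control shRNA, plotted against the mean level over the 6 libraries in CPM on a log axis. Red points are the 2501 higher genes, blue points the 2044 lower genes and grey points those not called. Large changes lie mainly at low levels, and MSI2 stands apart among genes above 10 CPM.

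The largest rises and falls described next, and those of abundant genes, were picked among genes whose libraries did not overlap between groups. Their separation therefore follows from the choice. Over all tested genes it was found for 20.8% in the direction of a rise and 17.9% in that of a fall. Members of the gene lists named further on were mostly picked by smallest p in the same comparison, which favours separation as well. Among genes reaching 10 CPM, the largest rise was that of ADAMTS4, a secreted protease that cleaves the proteoglycan aggrecan. It was at 45.5, 49.7 and 42.9 CPM in the knockdown libraries, against 11.7, 15.2 and 14.9 CPM in the control libraries. Its lowest knockdown library was well above its highest control library, a log2 change of 1.75 ± 0.10 (edgeR adjusted p = 5.3e-10). SLC2A3, the high-affinity glucose transporter GLUT3 that neurons rely on, had 138, 162 and 149 CPM in the knockdown libraries and 40.4, 48.6 and 48.9 CPM in the control libraries. Here too the groups were wide apart, at log2 1.71 ± 0.09 (edgeR adjusted p = 7.4e-11). IRAK2, which carries signals from the interleukin-1 and Toll-like receptors, reached 19.1, 17.9 and 18.5 CPM in the knockdown libraries and 6.25, 6.27 and 7.10 CPM in the control libraries. The 3 knockdown libraries lay close together and far above control, with a log2 change of 1.53 ± 0.09 (edgeR adjusted p = 5.3e-10).

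NES, the intermediate filament nestin of neural progenitors, had 24.2, 26.1 and 26.9 CPM in the knockdown libraries and 8.83, 10.3 and 7.46 CPM in the control libraries (log2 1.498 ± 0.09). CD68, a lysosomal glycoprotein abundant in macrophages, had 44.5, 43.9 and 43.8 CPM in the knockdown libraries, against 16.8, 16.5 and 14.7 CPM in the control libraries (log2 1.45 ± 0.07). The groups were apart for both. CD68 made up nearly all of the blood cell marker list, whose sum was 47.7 to 48.07 CPM in the knockdown and 17.9 to 20.6 CPM in control, and none of the other 4 tested members of that list was called. VGF, a neuropeptide precursor, averaged 25.4 ± 1.71 CPM in the knockdown and 10.6 ± 1.53 CPM in control (± SD, n = 3 each; log2 1.27 ± 0.10).

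Among the remaining large rises, ACVR2B, an activin receptor, averaged 25.2 ± 2.21 CPM in the knockdown and 9.91 ± 0.222 CPM in control (log2 1.35 ± 0.10), and FGFR4, a fibroblast growth factor receptor, 37.5 ± 1.89 CPM in the knockdown and 15.6 ± 2.04 CPM in control (log2 1.255 ± 0.09). ULBP2, a stress ligand seen by natural killer cells, averaged 12.01 ± 0.593 CPM in the knockdown and 5.24 ± 0.973 CPM in control (log2 1.23 ± 0.11). CFB, complement factor B, reached 14.6 ± 1.81 CPM in the knockdown and 6.05 ± 1.13 CPM in control (log2 1.21 ± 0.14), and STC1, the secreted glycoprotein stanniocalcin-1, 11.7 ± 0.904 CPM in the knockdown and 4.94 ± 0.756 CPM in control (log2 1.197 ± 0.12). The palmitoyltransferase gene ZDHHC18 rose by log2 1.26 ± 0.06, to 64.2 ± 2.01 CPM in the knockdown, against 26.6 ± 1.76 CPM in control. For all of these the knockdown libraries lay above the control libraries, and the largest edgeR adjusted p among the 13 large rises described was 4.3e-05, of MMP14.

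Among abundant genes, those at 200 CPM or more, PLAU, the urokinase that activates plasminogen, had 526, 577 and 547 CPM in the knockdown libraries and 238, 282 and 246 CPM in the control libraries (log2 1.11 ± 0.08). Its lowest knockdown library was above its highest control library. IFITM1, an antiviral membrane protein, had 229.7, 239 and 234 CPM in the knockdown libraries and 112, 105 and 115 CPM in the control libraries (log2 1.09 ± 0.07), and GANAB, the catalytic subunit of glucosidase II that trims glycans in the endoplasmic reticulum, averaged 736 ± 51.8 CPM in the knockdown and 370.1 ± 25.1 CPM in control (log2 0.99 ± 0.08).

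After MSI2, the largest fall was that of FOS, the immediate early transcription factor, with 2.81, 2.82 and 3.31 CPM in the knockdown libraries and 9.67, 12.8 and 8.09 CPM in the control libraries. The spread among control libraries was wide, yet none came near the knockdown (log2 -1.81 ± 0.14, edgeR adjusted p = 2.0e-08). The next 2 were mitochondrial enzymes. ABAT, the transaminase that degrades GABA, had 3.54, 3.67 and 3.27 CPM in the knockdown libraries and 13.4, 8.08 and 9.44 CPM in the control libraries (log2 -1.58 ± 0.15). PRODH, proline dehydrogenase, had 6.75, 8.13 and 6.61 CPM in the knockdown libraries and 19.6, 21.6 and 17.98 CPM in the control libraries (log2 -1.47 ± 0.10). In both genes the groups stayed apart. ALDH1L2, a mitochondrial folate enzyme, and CHCHD10, a protein of the space between the mitochondrial membranes, fell, at log2 -1.01 ± 0.10 and -1.02 ± 0.10.

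Among abundant genes the largest fall was that of SUPT16H, a subunit of the FACT complex that opens nucleosomes for polymerases. It had 213, 201 and 209.9 CPM in the knockdown libraries, against 487, 468 and 480.5 CPM in the control libraries (log2 -1.204 ± 0.06). ASF1B, a chaperone that hands over histones H3 and H4, had 18.7, 17.4 and 19.2 CPM in the knockdown libraries and 45.1, 34.3 and 42.3 CPM in the control libraries (log2 -1.13 ± 0.09). No library of one group reached the other in either gene. H3F3A, which encodes the replacement histone H3.3, averaged 241 ± 25.4 CPM in the knockdown and 356 ± 20.9 CPM in control (log2 -0.56 ± 0.08).

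The other large falls came from unrelated families. KRT80, a keratin of epithelial cells, had 43.2, 38.6 and 40.98 CPM in the knockdown libraries and 110.3, 95.7 and 101 CPM in the control libraries (log2 -1.32 ± 0.07). THUMPD1, an adaptor for acetylation of transfer RNA, had 29.2, 27.3 and 27.01 CPM in the knockdown libraries and 63.6, 60.3 and 61.4 CPM in the control libraries (log2 -1.15 ± 0.07). Each of these fell well clear of control. STS, steroid sulfatase, the centrosomal gene CEP19 and TP53INP1, a stress-induced nuclear protein, fell, at log2 -1.12 ± 0.09, -1.01 ± 0.10 and -1.08 ± 0.09. RN7SL2, a copy of the 7SL RNA that targets secreted proteins to the endoplasmic reticulum, had 5.22, 2.797 and 3.64 CPM in the knockdown libraries and 11.996, 7.55 and 10.8 CPM in the control libraries (log2 -1.39 ± 0.22), a value that depends on how reads were split among its near-identical copies. Among abundant genes CAP1, which recycles actin monomers, and PPA1, a pyrophosphatase, fell, at log2 -0.62 ± 0.07 and -0.54 ± 0.08, and TM4SF18, a membrane protein, by -0.60 ± 0.07. The calls of these 13 rises and 14 falls held in every alternative setting that was run, except that ABAT was not tested with the filter of 5 CPM.

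**Figure D2:**
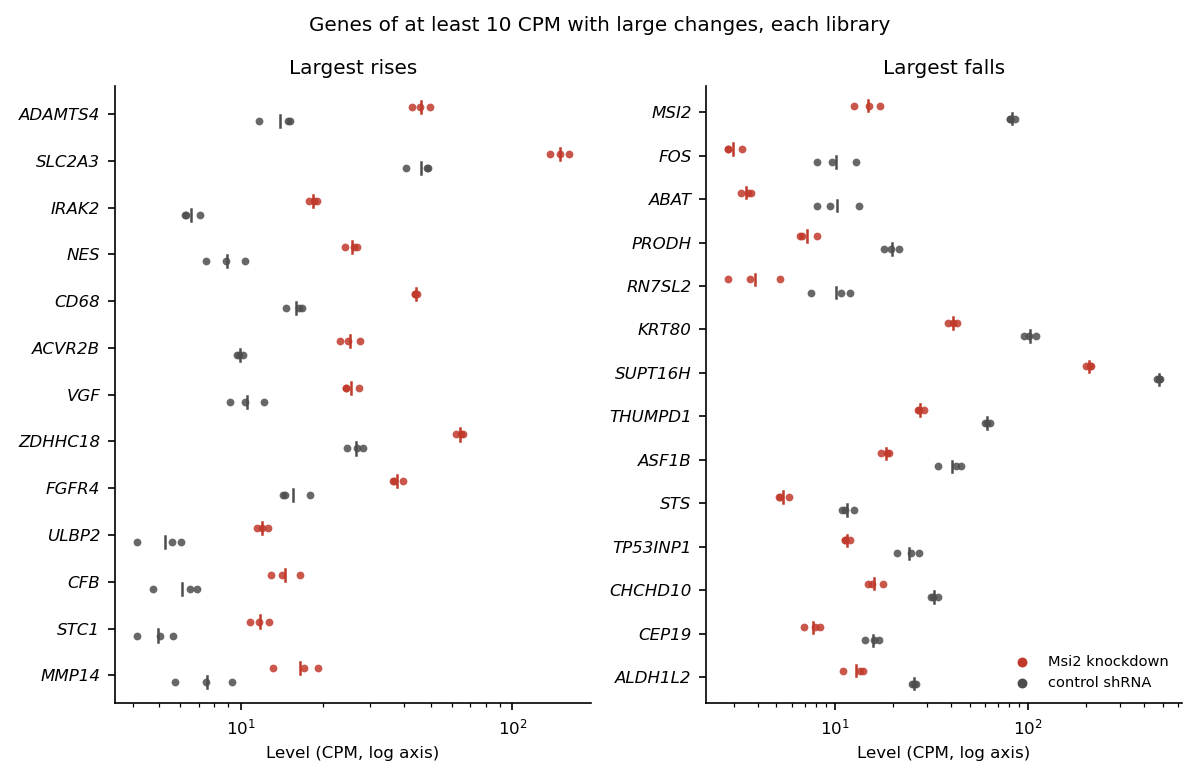
Level in each library, in CPM on a log axis, of 13 of the genes with the largest rise (left) and the 14 with the largest fall (right) among genes reaching 10 CPM in the higher group. Red points are the 3 Msi2 knockdown libraries and grey points the 3 control libraries, and short lines mark the group means. The 2 groups are separate in each gene, which the rule for picking the genes required.

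Inflammatory signalling through NF-kB was described from receptor to target. In this pathway interleukin-1, tumour necrosis factor (TNF) or microbial products bind receptors, adaptors such as the IRAK and TRAF proteins activate the IKK kinases, and NF-kB dimers enter the nucleus. There they switch on chemokines and also their own inhibitors, which close the loop. Of 26 tested genes of interleukin-1, Toll-like and TNF receptor signalling, 11 rose and 2 fell (median log2 0.29), against 16.7% and 13.6% of all genes. Besides IRAK2, the death receptors for TRAIL rose. TNFRSF10A had 47.8, 54.3 and 50.4 CPM in the knockdown libraries and 29.5, 30.8 and 30.02 CPM in the control libraries (log2 0.76 ± 0.08), and TNFRSF10B averaged 273 ± 22.4 CPM in the knockdown and 181 ± 8.95 CPM in control (log2 0.59 ± 0.08). IL1R1, the interleukin-1 receptor, had 148, 147 and 143 CPM in the knockdown libraries, against 115, 99.99 and 109.8 CPM in the control libraries (log2 0.43 ± 0.07). None of these groups overlapped. TNFRSF12A and CD40, 2 further receptors of the family, rose by log2 0.42 ± 0.08 and 0.38 ± 0.07. IRAK4, the kinase upstream of IRAK2, went the other way, at 6.56 ± 0.0548 CPM in the knockdown and 9.23 ± 0.340 CPM in control (log2 -0.50 ± 0.08). With thinned libraries 7 genes of this list were higher and 0 lower, and the calls of CD40 and IRAK4 were lost.

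The NF-kB subunits and kinases themselves had 4 of 16 higher (25%) and 2 lower (12.5%), beside 16.7% and 13.6% of all tested genes. NFKB2, the p100 precursor, had 107, 107 and 104 CPM in the knockdown libraries and 69.5, 71.7 and 67.9 CPM in the control libraries (log2 0.61 ± 0.06). Its groups were narrow and apart. IKBKB, the catalytic kinase of the pathway, had 52.9, 59.7 and 45.6 CPM in the knockdown libraries and 69.7, 75.3 and 65.1 CPM in the control libraries, a fall of log2 -0.41 ± 0.09. RELB and REL rose by log2 0.45 ± 0.11 and 0.45 ± 0.12. The call of RELB was lost without control replicate 1 and that of REL with thinned libraries. RELA and NFKB1 were not called. RELA differed by log2 0.11 ± 0.06, and NFKB1 averaged 49.1 ± 2.77 CPM in the knockdown and 49.0 ± 2.199 CPM in control. Without control replicate 1 the subunits and kinases counted 2 higher and 2 lower, and with the replicate block within the 2 groups 5 and 4.

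The inhibitors that NF-kB induces moved one way. Of 14 tested, 8 rose and 0 fell (median log2 0.28). BIRC3, an inhibitor of apoptosis that also ubiquitinates pathway members, had 135, 128 and 138 CPM in the knockdown libraries and 92.5, 103 and 104 CPM in the control libraries (log2 0.43 ± 0.07). NFKBIA, which holds NF-kB in the cytoplasm, had 149, 144 and 159.7 CPM in the knockdown libraries and 117, 118 and 107 CPM in the control libraries (log2 0.40 ± 0.07). TNFAIP3, the deubiquitinase A20, had 17.4, 16.8 and 16.7 CPM in the knockdown libraries and 12.6, 12.02 and 12.9 CPM in the control libraries (log2 0.45 ± 0.08). The groups were apart in all 3. ZC3H12A, an RNase that destroys cytokine mRNAs, NFKBIZ and BCL3, nuclear relatives of NFKBIA, rose by log2 0.50 ± 0.09, 0.35 ± 0.07 and 0.44 ± 0.09. With thinned libraries 3 were higher and 0 lower, and the calls of TNFAIP3, ZC3H12A, NFKBIZ and BCL3 were lost.

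Lists were chosen with earlier results of these data known, so their ranking is only a description. Among lists with 10 or more tested members, chemokines and cytokines had the largest share of members higher. Of 24 tested, 17 rose and 1, IL11, fell (median log2 0.57). CXCL8, interleukin-8, which draws neutrophils, had 162, 174 and 191 CPM in the knockdown libraries and 73.6, 86.7 and 89.2 CPM in the control libraries. All 3 knockdown libraries were well above all 3 control libraries, a log2 change of 1.09 ± 0.08 (edgeR adjusted p = 8.6e-09). CXCL1, a chemokine of the same family, had 71.9, 81.4 and 84.5 CPM in the knockdown libraries and 52.0, 55.4 and 46.8 CPM in the control libraries (log2 0.62 ± 0.07). The colony-stimulating factors CSF3, for granulocytes, and CSF1, for macrophages, averaged 21.6 ± 1.47 and 106 ± 5.99 CPM in the knockdown, against 13.7 ± 1.41 and 74.1 ± 6.34 CPM in control (log2 0.63 ± 0.08 and 0.52 ± 0.08). Again no library of the 2 groups overlapped. IL32, a proinflammatory cytokine, had 4.89, 4.59 and 5.54 CPM in the knockdown libraries and 2.21, 1.94 and 2.52 CPM in the control libraries (log2 1.21 ± 0.14), and CXCL3 and EBI3, both under 2 CPM in control, rose by log2 0.93 ± 0.16 and 1.71 ± 0.29. Many members were scarce: with thinned libraries the list had 9 higher and 0 lower, the call of EBI3 was lost, and under a filter of 5 CPM on the mean level 8 and 0.

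These genes can be read beside their promoters. NF-kB binds a 10-letter site known as the kB consensus, and AP-1 the motif TGANTCA. In RefSeq promoter windows of 300 bases (GRCh38.p14, 250 before to 50 after the start site, both strands searched), the kB consensus was found in 8 of 16 promoters of tested chemokines and cytokines and in 5 of 13 of the feedback inhibitors (38.5%). It was found in 12.9% of the 11874 promoters of all tested genes, in 14.6% of those of higher genes and in 12.5% of those of lower genes. Both lists hold genes that NF-kB switches on, as described above, so their shares describe the lists and not the knockdown. Among chemokines and cytokines that rose, 6 of 11 promoters held it. The bases just before the start site of 4 genes that rose show how such matches lie, with matches in capitals. In CXCL8 the match is to the 9-letter site GGAATTTCC, found in 0.472% of promoters of tested genes, and to the AP-1 motif, found in 4.67%. In CXCL1, NFKBIA and TNFAIP3 the capitals mark the kB consensus, and TNFAIP3 has it at 2 places. A match is a description of the letters and does not show binding. Each stretch holds the 150 bases before the start site and is written 5′ to 3′ on the gene's strand.
CXCL8 (chr4:73740419-73740568, plus strand): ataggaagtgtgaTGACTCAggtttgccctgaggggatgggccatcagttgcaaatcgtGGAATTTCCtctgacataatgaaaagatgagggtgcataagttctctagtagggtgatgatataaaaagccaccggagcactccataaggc
CXCL1 (chr4:73869243-73869392, plus strand): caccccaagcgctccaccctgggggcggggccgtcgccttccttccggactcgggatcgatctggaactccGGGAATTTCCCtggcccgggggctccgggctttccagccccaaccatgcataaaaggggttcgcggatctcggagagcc
NFKBIA (chr14:35404750-35404899, minus strand): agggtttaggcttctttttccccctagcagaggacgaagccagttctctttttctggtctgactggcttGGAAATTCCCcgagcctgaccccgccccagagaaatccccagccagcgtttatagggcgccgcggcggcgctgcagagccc
TNFAIP3 (chr6:137867109-137867258, plus strand): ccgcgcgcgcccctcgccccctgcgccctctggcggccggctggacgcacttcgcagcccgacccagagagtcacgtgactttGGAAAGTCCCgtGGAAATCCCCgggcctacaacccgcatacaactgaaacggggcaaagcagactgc

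**Figure D3:**
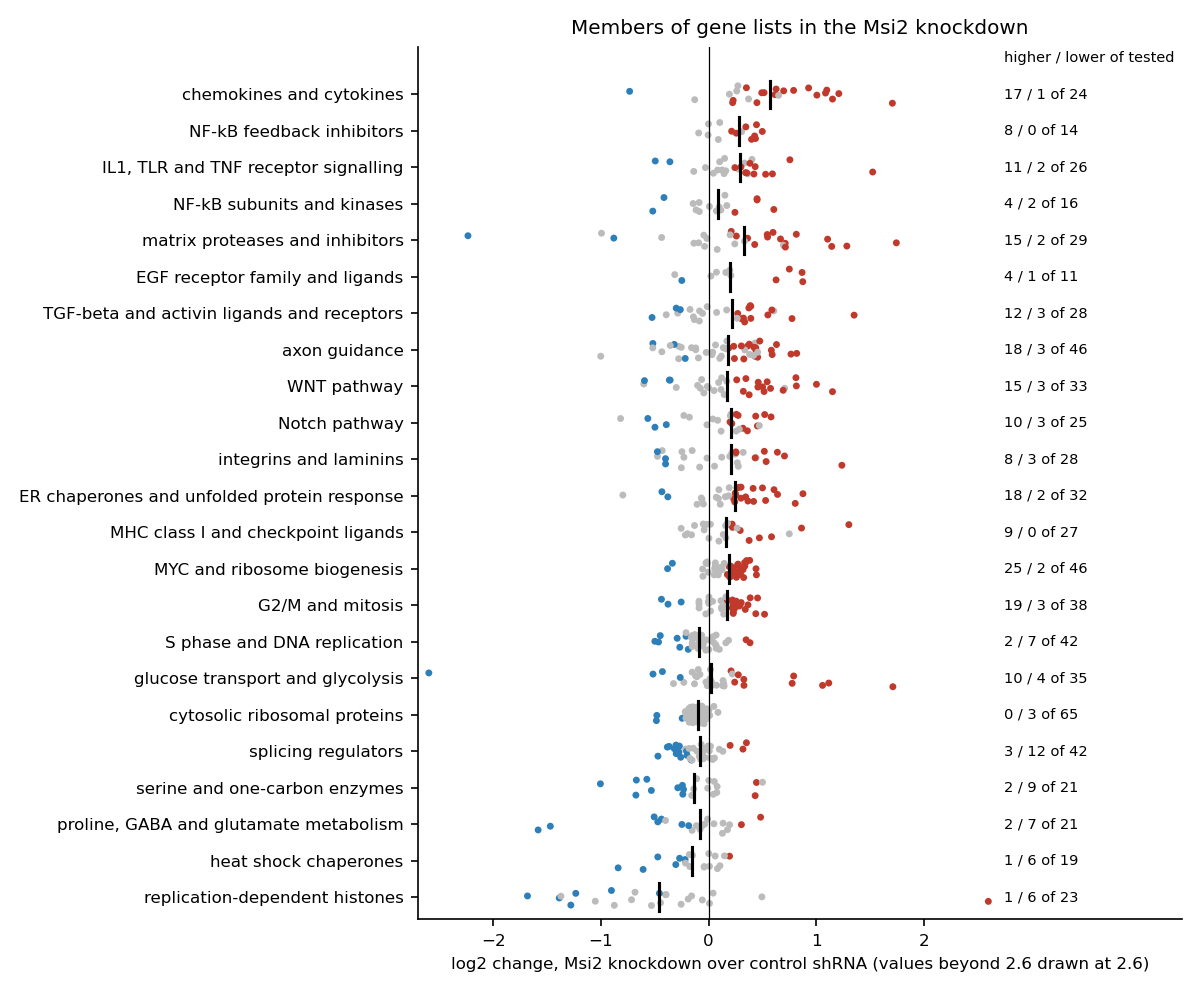
log2 change of each tested member of 23 gene lists, Msi2 knockdown over control shRNA. Red points are members called higher, blue points members called lower and grey points members not called, black bars are list medians, and the counts at the right give members higher and lower of those tested. The median of chemokines lies farthest to the right and that of histones farthest to the left.

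Growth factor signalling through the EGF receptor was looked at from its ligands to the immediate early genes that follow it. Of 11 tested receptors, ligands and regulators 4 rose (36.4%) and 1 fell (9.09%), beside 16.7% and 13.6% of all tested genes. The same 2 shares of all genes are to be set beside the counts of every later list. Both abundant ligands rose. EREG, epiregulin, had 701, 827 and 747 CPM in the knockdown libraries and 419, 428 and 392.1 CPM in the control libraries (log2 0.88 ± 0.08). AREG, amphiregulin, had 89.2, 100.3 and 103 CPM in the knockdown libraries and 54.0, 57.4 and 47.6 CPM in the control libraries (log2 0.87 ± 0.07). The 2 groups did not overlap in either. ERRFI1, an inhibitor of the receptor, reached 1102, 1033 and 1133 CPM in the knockdown libraries, against 625, 735 and 757 CPM in the control libraries (log2 0.63 ± 0.08), and the receptor ERBB3 averaged 16.6 ± 1.17 CPM in the knockdown and 9.80 ± 0.737 CPM in control (log2 0.75 ± 0.10). EGFR itself was not called, at 399 ± 35.1 CPM in the knockdown and 379 ± 35.6 CPM in control.

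Genes that restrain the MAP kinase cascade rose in 6 cases of 21 and fell in 1. SPRY4 had 407, 389.8 and 399 CPM in the knockdown libraries and 267, 277 and 293.1 CPM in the control libraries (log2 0.52 ± 0.06). SPRY1, a Sprouty inhibitor like it, had 54.7, 51.9 and 51.4 CPM in the knockdown libraries and 74.02, 70.3 and 69.9 CPM in the control libraries, a fall of log2 -0.44 ± 0.06. The 2 paralogs thus moved apart. The phosphatases DUSP5 and DUSP1, which switch MAP kinases off, averaged 9.32 ± 1.13 and 36.3 ± 2.89 CPM in the knockdown, against 4.599 ± 0.515 and 22.9 ± 1.86 CPM in control (log2 1.02 ± 0.12 and 0.65 ± 0.08). EPHA2, an ephrin receptor induced by this cascade, had 399.9, 439 and 401 CPM in the knockdown libraries and 259, 288 and 252 CPM in the control libraries (log2 0.63 ± 0.08). DUSP6 and SPRY2, other well-known feedback genes, were not called, at log2 -0.31 ± 0.14 and -0.09 ± 0.06.

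AP-1 factors, dimers of the FOS, JUN, ATF and MAF families, had 3 of 13 higher (23.1%) and 2 lower (15.4%), near the 16.7% and 13.6% of all tested genes. Beside FOS, JUNB was called lower (log2 -0.29 ± 0.09), a call lost with thinned libraries and without control replicate 1, control replicate 2 or Msi2 knockdown replicate 2. FOSL1 was called higher (log2 0.28 ± 0.08), but not with thinned libraries or without control replicate 1. MAFF, a small Maf factor, had 33.9, 30.7 and 33.2 CPM in the knockdown libraries and 17.2, 18.1 and 17.9 CPM in the control libraries (log2 0.88 ± 0.08). FOSL2, a relative of FOS, had 167, 155 and 154 CPM in the knockdown libraries and 117, 119 and 118 CPM in the control libraries (log2 0.43 ± 0.05). The groups were apart in both. Of 24 other immediate early genes tested 8 rose and 1 fell. EGR1 averaged 80.5 ± 4.39 CPM in the knockdown and 58.4 ± 2.96 CPM in control (log2 0.46 ± 0.07), and NR4A1, an orphan nuclear receptor, had 7.50, 6.92 and 7.45 CPM in the knockdown libraries and 2.55, 2.73 and 1.89 CPM in the control libraries (log2 1.54 ± 0.13). SRF, the factor that drives many of these genes, rose by log2 0.38 ± 0.07. BTG2, an antiproliferative member, fell to 31.4 ± 2.22 CPM in the knockdown, against 45.4 ± 5.16 CPM in control (log2 -0.54 ± 0.08). JUN was not called, at log2 0.09 ± 0.07.

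Among ligands, receptors and regulators of the TGF-beta and activin family 12 of 28 rose and 3 fell (median log2 0.22). These ligands bind pairs of type I and type II receptors, which phosphorylate SMAD proteins. TGFBR1, a type I receptor and a described Musashi target, had 30.6, 33.2 and 34.2 CPM in the knockdown libraries and 21.4, 22.6 and 21.03 CPM in the control libraries (log2 0.59 ± 0.07). TGFB1, a ligand, had 30.5, 29.8 and 28.9 CPM in the knockdown libraries and 19.1, 21.5 and 20.4 CPM in the control libraries (log2 0.55 ± 0.07). FSTL3, which binds activin and blocks it, had 18.3, 18.5 and 17.2 CPM in the knockdown libraries and 10.4, 11.1 and 9.89 CPM in the control libraries (log2 0.78 ± 0.08). None of the 3 overlapped between groups. The bone morphogenetic protein BMP7 and the co-receptor ENG rose by log2 0.37 ± 0.06 and 0.39 ± 0.08, and TGFBR2 was not called, at log2 -0.39 ± 0.27. Among SMADs and target genes 10 of 30 rose (33.3%) and 4 fell (13.3%, near the 13.6% of all tested genes). The basement membrane collagen COL4A1 averaged 35.7 ± 3.65 CPM in the knockdown and 21.8 ± 3.45 CPM in control (log2 0.68 ± 0.10). With thinned libraries the ligands, receptors and regulators had 7 higher and 1 lower and the SMADs and targets 5 and 2. With the replicate block within the 2 groups the SMADs and targets had 7 lower.

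The YAP and TEAD list, read as the output of Hippo signalling, had 9 of 19 members higher and 1 lower. CYR61, a secreted matrix protein, had 290.4, 338 and 319 CPM in the knockdown libraries and 148, 179 and 155 CPM in the control libraries (log2 0.97 ± 0.08). CTGF, its relative, had 9.56, 11.6 and 11.99 CPM in the knockdown libraries and 6.05, 7.19 and 5.21 CPM in the control libraries (log2 0.81 ± 0.11). The groups were apart in each, and both genes also stand in the lists of TGF-beta targets and immediate early genes. NUAK2, a kinase, rose by log2 0.73 ± 0.10, and AXL, a receptor tyrosine kinase, by log2 0.31 ± 0.08.

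Numb, a described Musashi target, inhibits the Notch pathway, but NUMB had 0 counts in all 12 libraries of the table and was not tested. Of 25 tested genes 10 rose and 3 fell. The receptors NOTCH1, NOTCH2 and NOTCH3 moved alike. NOTCH1 had 65.1, 66.6 and 62.6 CPM in the knockdown libraries and 44.4, 53.3 and 45.2 CPM in the control libraries (log2 0.44 ± 0.08). NOTCH2 had 290.1, 322 and 267 CPM in the knockdown libraries and 188, 228 and 196 CPM in the control libraries (log2 0.52 ± 0.11). NOTCH3 had 95.1, 99.4 and 91.2 CPM in the knockdown libraries and 61.5, 69.8 and 58.96 CPM in the control libraries (log2 0.58 ± 0.11). All 3 were higher in each knockdown library than in any control library. The coactivators MAML1 and MAML2, which Notch needs to switch on genes, fell, at log2 -0.39 ± 0.06 and -0.56 ± 0.10. Without control replicate 1 the list had 4 higher and 4 lower, without control replicate 3 it had 5 and 3, without Msi2 knockdown replicate 2 it had 6 and 4, and with thinned libraries 4 and 3.

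In the WNT pathway 15 of 33 genes rose and 3 fell. The rises included secreted antagonists as well as receptors. SFRP1, which binds WNT ligands, had 238, 256 and 251 CPM in the knockdown libraries and 158, 174 and 168 CPM in the control libraries (log2 0.58 ± 0.07). DKK1, which blocks the co-receptor LRP, had 87.4, 96.3 and 98.5 CPM in the knockdown libraries and 64.4, 70.8 and 63.7 CPM in the control libraries (log2 0.50 ± 0.07). The groups were apart in both. The receptor FZD6 and the co-receptor LRP5 rose by log2 0.54 ± 0.09 and 0.46 ± 0.08, and the ligand WNT5B, at 6.31 ± 0.226 CPM in the knockdown and 3.45 ± 0.575 CPM in control, by 0.82 ± 0.12. AXIN2, a target of canonical WNT signalling, was at 0.928, 0.877 and 0.841 CPM in the knockdown libraries and 1.26, 1.44 and 1.26 CPM in the control libraries, a log2 change of -0.60 ± 0.22 (edgeR adjusted p = 0.0441). That call was lost without any 1 of the 6 libraries, with DESeq2, with thinned libraries, without the low-count filter and with the 2 groups alone in the model. Axon guidance genes, a family of surface cues that also act in epithelial cells, had 18 of 46 higher and 3 lower (median log2 0.18). SEMA4B had 109.9, 121 and 112 CPM in the knockdown libraries and 65.9, 70.5 and 65.3 CPM in the control libraries (log2 0.77 ± 0.07), and its kind of receptor, the plexins PLXNA1 and PLXND1, rose by log2 0.58 ± 0.09 and 0.42 ± 0.07. With thinned libraries the WNT list had 9 higher and 2 lower and axon guidance 9 and 1.

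Proteases that cut the extracellular matrix, and their inhibitors, rose in 15 cases of 29 and fell in 2 (median log2 0.33). Beyond ADAMTS4 and PLAU, the urokinase receptor PLAUR had 49.5, 52.4 and 49.7 CPM in the knockdown libraries and 27.7, 34.4 and 30.4 CPM in the control libraries (log2 0.71 ± 0.08). MMP14, a membrane-bound collagenase, had 17.04, 19.2 and 13.2 CPM in the knockdown libraries and 5.72, 9.33 and 7.46 CPM in the control libraries (log2 1.14 ± 0.15). MMP1, the interstitial collagenase, had 21.9, 26.9 and 25.9 CPM in the knockdown libraries and 14.7, 16.8 and 13.6 CPM in the control libraries (log2 0.71 ± 0.09). All 3 were higher in every knockdown library. MMP15 and MMP17, membrane-bound relatives of MMP14, rose by log2 0.60 ± 0.07 and 0.82 ± 0.12. TIMP1 and TIMP2, the tissue inhibitors, were not called, at log2 0.20 ± 0.08 and 0.08 ± 0.08, though TIMP1 passed with the replicate block within the 2 groups (edgeR adjusted p = 0.00147) and in 4 other settings (adjusted p of 0.0314 to 0.0499). MMP2 had 0.0502, 0.112 and 0.0391 CPM in the knockdown libraries and 0.336, 0.328 and 0.359 CPM in the control libraries and was the clearer of the 2 falls (log2 -2.24 ± 0.48), at a level far below the rest. Protease counts were 9 higher and 1 lower without control replicate 1, and 10 and 0 with thinned libraries.

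Adhesion molecules had 8 of 28 higher (28.6%) and 3 lower (10.7%), beside 16.7% and 13.6% of all tested genes. ITGB1, the beta subunit shared by most matrix-binding integrins, had 2209, 2495 and 2427 CPM in the knockdown libraries and 1341, 1615 and 1418 CPM in the control libraries (log2 0.71 ± 0.09). ITGB4, the laminin-binding subunit of hemidesmosomes, had 422, 451 and 403 CPM in the knockdown libraries and 279, 334 and 275.9 CPM in the control libraries (log2 0.52 ± 0.09). The knockdown libraries were the higher in each. The laminin chains LAMC1 and LAMB1 rose by log2 0.53 ± 0.10 and 0.43 ± 0.09. LAMB2 had 103, 118 and 81.5 CPM in the knockdown libraries and 138, 162 and 119 CPM in the control libraries, a fall of log2 -0.48 ± 0.13 whose call was lost with the 2 compared groups alone in the model. No tested alpha subunit other than ITGAE was called. Without control replicate 3 the list had 5 higher and 3 lower, and with thinned libraries 5 and 1.

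MHC class I genes and checkpoint ligands, surface molecules seen by immune cells, had 9 of 27 higher and 0 lower. CD274, the checkpoint ligand PD-L1, had 6.198, 6.43 and 5.93 CPM in the knockdown libraries and 2.33, 2.50 and 2.97 CPM in the control libraries (log2 1.304 ± 0.13). The nectins PVRL2 and PVR, which bind the receptors TIGIT and DNAM-1, averaged 121 ± 6.91 and 92.1 ± 3.66 CPM in the knockdown, against 66.6 ± 6.07 and 66.3 ± 3.65 CPM in control (log2 0.86 ± 0.08 and 0.47 ± 0.07). In these genes the groups were apart. CD55, which protects cells from complement, rose by log2 0.59 ± 0.09. Of the classical HLA genes, HLA-B was not called, at log2 0.22 ± 0.09, but passed with the replicate block within the 2 groups (edgeR adjusted p = 0.0425), without control replicate 2 and with no filter on low counts. The call of HLA-C (0.29 ± 0.09) was lost without control replicate 3, without Msi2 knockdown replicate 2 and with thinned libraries. Reads of HLA genes depend on the alleles of the line and on the reference used. Without control replicate 3 the list had 5 higher and 1 lower, and with thinned libraries 5 and 0.

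Of 35 tested genes of glucose transport and glycolysis 10 rose (28.6%) and 4 fell (11.4%), and 21 were not called (median log2 0.03). The shares of all tested genes were 16.7% and 13.6%. PFKFB3, which makes the activator of phosphofructokinase, had 97.0, 90.5 and 96.5 CPM in the knockdown libraries and 39.9, 50.2 and 46.6 CPM in the control libraries (log2 1.06 ± 0.07). PFKP, the platelet-type phosphofructokinase, had 259.9, 236 and 245 CPM in the knockdown libraries and 124, 152 and 154 CPM in the control libraries (log2 0.79 ± 0.08). SLC16A3, which exports lactate, had 93.2, 102 and 101 CPM in the knockdown libraries and 54.7, 59.6 and 59.1 CPM in the control libraries (log2 0.78 ± 0.08). Together with SLC2A3 these were the clearest rises, each with the groups apart. HK2, hexokinase 2, rose by log2 0.33 ± 0.06, while PKM and LDHA of the lower pathway were not called, at log2 -0.12 ± 0.08 and 0.07 ± 0.08, PKM passing with the replicate block within the 2 groups (edgeR adjusted p = 0.0213). GAPDH averaged 4569 ± 379 CPM in the knockdown and 4511.99 ± 421 CPM in control and was not called either. LDHB was nearly absent, at 0, 0.0373 and 0.0978 CPM in the knockdown libraries and 1.12, 1.51 and 1.44 CPM in the control libraries, and was called lower (log2 -4.70 ± 0.72). Of 20 genes induced by hypoxia 7 rose and 2 fell, led by the oxidase ERO1A at 208 ± 14.9 CPM in the knockdown and 113 ± 6.57 CPM in control (log2 0.88 ± 0.08). VEGFA was not called, at 41.5 ± 2.747 CPM in the knockdown and 39.8 ± 2.39 CPM in control. Without control replicate 1 the hypoxia list had 4 higher and 1 lower, and with thinned libraries 3 and 1.

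Enzymes of serine and one-carbon metabolism fell in 9 cases of 21 and rose in 2 (median log2 -0.14). They make serine from a glycolytic intermediate and pass its carbon to folate for nucleotide synthesis. PHGDH, the first enzyme of serine synthesis, had 70.7, 66.8 and 72.6 CPM in the knockdown libraries and 120.1, 104 and 110.4 CPM in the control libraries (log2 -0.67 ± 0.07). PSAT1, the second, had 129, 121 and 138 CPM in the knockdown libraries and 189, 172 and 201 CPM in the control libraries (log2 -0.53 ± 0.07). SHMT2, which moves the carbon to folate in mitochondria, had 92.2, 90.2 and 91.8 CPM in the knockdown libraries and 154, 142 and 142 CPM in the control libraries (log2 -0.68 ± 0.06). These 3 genes were lower in every knockdown library. MTHFD2, the next mitochondrial step, stood apart with 297, 275 and 320.3 CPM in the knockdown libraries and 225, 197 and 239.8 CPM in the control libraries, a rise of log2 0.43 ± 0.08. CTH, which makes cysteine, rose by log2 0.45 ± 0.07.

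Proline, GABA and glutamate metabolism had 7 of 21 genes lower and 2 higher. After ABAT and PRODH came GLUD1, glutamate dehydrogenase, with 228, 209 and 234 CPM in the knockdown libraries and 318, 308 and 328 CPM in the control libraries (log2 -0.51 ± 0.06). ALDH5A1, which acts after ABAT in GABA breakdown, had 45.8, 45.1 and 47.5 CPM in the knockdown libraries and 65.2, 60.9 and 61.2 CPM in the control libraries (log2 -0.44 ± 0.06). Both steps of GABA breakdown were thus lower, without overlap. ASNS, asparagine synthetase, fell, at log2 -0.47 ± 0.06. ASS1, which joins aspartate to citrulline, rose by log2 0.48 ± 0.09. The enzymes that make proline were not called, ALDH18A1 at log2 0.13 ± 0.06 (edgeR adjusted p = 0.0931, or 0.0191 with the replicate block within the 2 groups) and PYCR1 at 80.6 ± 5.56 CPM in the knockdown and 81.2 ± 4.44 CPM in control. With the replicate block within the 2 groups 4 genes were higher and 9 lower.

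Among genes of cholesterol synthesis and uptake 9 of 24 rose (37.5%) and 3 fell (12.5%), beside 16.7% and 13.6% of all tested genes. ABCA1, which exports cholesterol, had 16.9, 19.1 and 16.8 CPM in the knockdown libraries and 8.72, 10.3 and 9.26 CPM in the control libraries (log2 0.90 ± 0.12). The groups were apart. INSIG1, which retains the pathway's activator in the endoplasmic reticulum, rose by log2 0.58 ± 0.06, and LSS, lanosterol synthase, fell, at log2 -0.46 ± 0.07.

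Chaperones of the endoplasmic reticulum and of the cytosol had opposite counts. In the endoplasmic reticulum, where secreted proteins fold, 18 of 32 genes rose and 2 fell (median log2 0.25). PDIA5, a disulfide isomerase, had 81.1, 92.6 and 89.4 CPM in the knockdown libraries and 45.3, 55.8 and 49.4 CPM in the control libraries (log2 0.81 ± 0.08). HYOU1, a large chaperone, had 248.7, 262 and 243 CPM in the knockdown libraries and 152, 179 and 163 CPM in the control libraries (log2 0.61 ± 0.08). EDEM1, which sends misfolded glycoproteins for degradation, had 73.4, 80.1 and 76.5 CPM in the knockdown libraries and 46.2, 54.8 and 45.7 CPM in the control libraries (log2 0.64 ± 0.07). All 3 were without overlap. XBP1, a transcription factor of the unfolded protein response, rose by log2 0.53 ± 0.07, and ERN1, the sensor that splices its mRNA, by log2 0.50 ± 0.11. EIF2AK3, the sensor PERK, fell to 17.5 ± 0.845 CPM in the knockdown, against 23.3 ± 3.38 CPM in control (log2 -0.43 ± 0.09). Without control replicate 1 or without control replicate 3 the list had 10 higher and 2 lower.

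The heat shock chaperones of the cytosol had 6 of 19 lower and 1 higher (median log2 -0.15). CHORDC1, a partner of HSP90, had 69.8, 73.9 and 71.4 CPM in the knockdown libraries and 99.4, 100.4 and 98.5 CPM in the control libraries (log2 -0.47 ± 0.05). HSPA8, the constitutive HSP70, had 1979, 1807 and 2066 CPM in the knockdown libraries and 2322, 2285 and 2448 CPM in the control libraries (log2 -0.27 ± 0.08). Each was lower in all 3 knockdown libraries, though the call of HSPA8 was lost without control replicate 3. The inducible pair HSPA1A and HSPA1B, which are near-identical so that reads could be split between them, fell, at log2 -0.84 ± 0.11 and -0.61 ± 0.10, and DNAJA1, an HSP40, at log2 -0.30 ± 0.08. HSP90AA1 was not called, at 2911 ± 254 CPM in the knockdown and 2895 ± 47.9 CPM in control, nor was HSPB1, at 189.7 ± 20.05 CPM in the knockdown and 196 ± 14.2 CPM in control. With the replicate block within the 2 groups 2 were higher and 10 lower.

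Cell cycle genes were counted by phase, without a test of the difference between phases. For DNA replication 7 of 42 genes fell (16.7%, beside 13.6% of all tested genes) and 2 rose (4.76%, beside 16.7% of all), with a median log2 of -0.09. For G2 and mitosis 19 of 38 rose and 3 fell (7.89%), with a median log2 of 0.17. MCM4, of the replicative helicase, had 144, 138 and 146 CPM in the knockdown libraries and 199, 187 and 206 CPM in the control libraries (log2 -0.47 ± 0.06). Its partner MCM6 had 153, 143 and 163 CPM in the knockdown libraries and 129.5, 110.1 and 120.1 CPM in the control libraries (log2 0.35 ± 0.07). Subunits of one complex thus moved apart. GINS1 and FEN1, further replication factors, fell, at log2 -0.50 ± 0.07 and -0.45 ± 0.07, and RRM2, which supplies deoxynucleotides, rose by log2 0.39 ± 0.08. With the replicate block within the 2 groups 4 replication genes were higher and 16 lower.

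In mitosis, PRC1, which bundles the central spindle, had 146, 136 and 144 CPM in the knockdown libraries and 105, 92.5 and 99.1 CPM in the control libraries (log2 0.52 ± 0.06). CDC20, the activator of the anaphase-promoting complex, had 194, 171 and 193 CPM in the knockdown libraries and 129.9, 129 and 149.7 CPM in the control libraries (log2 0.46 ± 0.08). NUF2, of the kinetochore, rose by log2 0.44 ± 0.07. The 3 had no overlap between groups. TOP2A, which untangles chromosomes, had 401, 376 and 389 CPM in the knockdown libraries and 552, 510.3 and 517 CPM in the control libraries, a fall of log2 -0.44 ± 0.07, and FOXM1, a transcription factor that drives mitotic genes, fell, at log2 -0.38 ± 0.06. The cyclin-dependent kinase CDK1 and the proliferation marker MKI67 were not called, at log2 0.11 ± 0.07 and -0.09 ± 0.08. The count of rises was 10 without control replicate 1, 11 without control replicate 2, 12 without Msi2 knockdown replicate 1 or 3, and 9 with thinned libraries, with 3 lower each time.

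Promoters of mitotic genes often hold the motif CCAAT, bound by the factor NF-Y. It was found in 23 of 31 RefSeq promoters of tested mitotic genes (74.2%), in 11 of 17 of those that rose (64.7%) and in 36.3% of promoters of all tested genes, on either strand. The stretches before the start sites of CDC20 and PRC1 are shown for comparison with those of the NF-kB targets, with CCAAT in capitals and the last 150 bases before the start, GRCh38.p14.
CDC20 (chr1:43358831-43358980, plus strand): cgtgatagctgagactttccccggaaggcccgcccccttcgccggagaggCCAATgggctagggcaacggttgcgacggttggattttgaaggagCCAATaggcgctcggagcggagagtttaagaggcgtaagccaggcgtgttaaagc
PRC1 (chr15:90994536-90994685, minus strand): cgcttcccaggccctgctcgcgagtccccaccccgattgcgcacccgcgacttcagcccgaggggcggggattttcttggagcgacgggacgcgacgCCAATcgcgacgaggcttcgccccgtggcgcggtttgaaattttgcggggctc

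Replication-dependent histones were scarce in these libraries and summed to 24.5 to 29.1 CPM in the knockdown and 40.5 to 47.4 CPM in control. Of 23 tested 6 fell and 1 rose (median log2 -0.46). HIST1H2BK had 2.31, 1.996 and 2.44 CPM in the knockdown libraries and 7.20, 6.11 and 9.08 CPM in the control libraries (log2 -1.68 ± 0.14). HIST1H2AG had 1.63, 1.42 and 1.51 CPM in the knockdown libraries and 2.83, 2.66 and 3.15 CPM in the control libraries (log2 -0.90 ± 0.15). Each knockdown library was lower than each control library in both. The calls of HIST1H2AC, HIST1H2BD, HIST1H3H and HIST3H2A were lost with thinned libraries, which left 2 lower and 0 higher. The rise was that of HIST2H2AA4, with 63, 31 and 31 counts in the knockdown libraries and 0 in each control library, at least 22.3-fold higher than the 3 counts over the group that a count of 0 allows. HIST2H2AA3, its near-identical neighbour, had 0, 52 and 83 counts in the knockdown libraries and 95, 61 and 26 counts in the control libraries. Summed, the pair had 1.58, 1.55 and 2.23 CPM in the knockdown libraries and 2.66, 2.00 and 2.34 CPM in the control libraries, which overlap, so the rise of HIST2H2AA4 is uncertain.

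Of 46 genes of MYC and ribosome biogenesis 25 rose and 2 fell (median log2 0.19). MYC had 333, 300.2 and 331 CPM in the knockdown libraries and 236, 236 and 236 CPM in the control libraries (log2 0.44 ± 0.06). DDX21, a nucleolar helicase, had 650.5, 607 and 659 CPM in the knockdown libraries and 431, 481 and 500.4 CPM in the control libraries (log2 0.44 ± 0.07). In each the 2 groups were separate. UTP6, TSR1 and RRP12, which process pre-ribosomes, rose by log2 0.33 ± 0.05, 0.34 ± 0.06 and 0.32 ± 0.06, and NCL, nucleolin, fell to 1109.7 ± 87.2 CPM in the knockdown, against 1445 ± 28.3 CPM in control (log2 -0.38 ± 0.08). Without control replicate 1 the list had 16 higher and 2 lower, and with thinned libraries 11 and 1. Of 65 cytosolic ribosomal protein genes 0 rose and 3 fell (median log2 -0.09). RPS15A had 323, 305 and 369.9 CPM in the knockdown libraries and 465, 435 and 497 CPM in the control libraries (log2 -0.49 ± 0.09), and RPL27A fell, at log2 -0.48 ± 0.09. That count depended on the fit, being 11 lower without Msi2 knockdown replicate 3 and 30 lower with the replicate block within the 2 groups.

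Splicing regulators fell more often than they rose, with 12 of 42 lower and 3 higher. MBNL2 had 85.1, 80.5 and 83.2 CPM in the knockdown libraries and 114, 109.6 and 122 CPM in the control libraries (log2 -0.47 ± 0.06). Its paralog MBNL1 had 140.4, 133 and 139 CPM in the knockdown libraries and 111, 97.0 and 115 CPM in the control libraries (log2 0.35 ± 0.07). These muscleblind proteins thus changed in opposite directions. Of the splicing regulators 4 were higher and 18 lower with the replicate block within the 2 groups. RBFOX2, TRA2A and SRSF1 fell, at log2 -0.37 ± 0.07, -0.38 ± 0.06 and -0.32 ± 0.06, and QKI rose by log2 0.32 ± 0.06. In translation itself, EIF4EBP2, a repressor of cap-dependent initiation, had 119.7, 105 and 121 CPM in the knockdown libraries and 212, 165 and 203 CPM in the control libraries (log2 -0.74 ± 0.08).

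Genes linked to Musashi proteins in earlier work, as far as the list at hand goes, had 8 of 19 higher and 6 lower, MSI2 included. IKZF2, a transcription factor, had 11.7, 11.7 and 11.1 CPM in the knockdown libraries and 16.4, 15.8 and 15.8 CPM in the control libraries (log2 -0.48 ± 0.08). CDKN1A, the cell cycle inhibitor p21, had 8.81, 8.24 and 9.47 CPM in the knockdown libraries and 5.41, 6.86 and 5.93 CPM in the control libraries (log2 0.54 ± 0.10). IKZF2 was lower and CDKN1A higher in every knockdown library. NUMBL, the Numb-like protein, rose by log2 0.27 ± 0.07, a call lost with thinned libraries, which left 5 members higher and 4 lower, and CD44 was not called, at log2 0.11 ± 0.08.

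Stem cell and progenitor genes of the pancreas gave 2 rises and 5 falls among 16. NES rose, as given above, and SOX9, a duct and progenitor factor, had 148, 139.8 and 149 CPM in the knockdown libraries and 188, 200.4 and 196 CPM in the control libraries (log2 -0.42 ± 0.06). BMI1, a Polycomb protein, averaged 7.41 ± 0.324 CPM in the knockdown and 9.45 ± 0.336 CPM in control (log2 -0.36 ± 0.09), a call lost with thinned libraries. Both were lower in each knockdown library. The list had 1 higher and 3 lower without control replicate 1 or without Msi2 knockdown replicate 1, and with thinned libraries 1 of each. ALDH1A1 and PDX1 were not called, at log2 -0.16 ± 0.09 and -0.33 ± 0.37, ALDH1A1 passing with the replicate block within the 2 groups (edgeR adjusted p = 0.00399). Keratins and other filaments had 5 of 21 lower and 2 higher. KRT15, a keratin of basal epithelium, had 71.7, 83.5 and 66.3 CPM in the knockdown libraries and 138, 149 and 131 CPM in the control libraries (log2 -0.92 ± 0.08), and KRT19, a ductal keratin, averaged 46.3 ± 3.78 CPM in the knockdown and 58.5 ± 4.84 CPM in control (log2 -0.33 ± 0.08). Of the filament genes 10 were lower with the replicate block within the 2 groups.

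Several falls at low levels were in genes of pluripotent cells, a list added after the values were seen. LIN28A had 0.301, 0.354 and 0.567 CPM in the knockdown libraries and 1.71, 1.71 and 2.88 CPM in the control libraries, and POU5F1 0.477, 0.559 and 0.489 CPM in the knockdown libraries and 1.49, 1.61 and 1.26 CPM in the control libraries. Of 15 such genes 10 were tested, 0 were higher and 7 lower. Their summed level was 12.4, 13.6 and 12.1 CPM in the knockdown libraries, against 20.5, 20.5 and 20.04 CPM in the control libraries. In cells with both shRNAs it was 14.7, 14.4 and 13.2 CPM and in the Msi1 knockdown 20.1, 17.3 and 14.7 CPM. DNMT3B, at 9.54, 10.4 and 9.19 CPM in the knockdown libraries and 12.6, 10.6 and 10.1 CPM in the control libraries, made up most of each sum and was not called. LDHB, SPARC and MMP2 fell at low levels too, LDHB at 0.0450 ± 0.0494 CPM in the knockdown and 1.36 ± 0.207 CPM in control, and KRT5 was at 0.251, 0.895 and 0.274 CPM in the knockdown libraries and 0.504, 3.35 and 2.43 CPM in the control libraries, high in 2 control libraries. The part of this in other results was not tested. In bulk RNA fewer cells and less RNA per cell cannot be told apart.

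**Figure D4:**
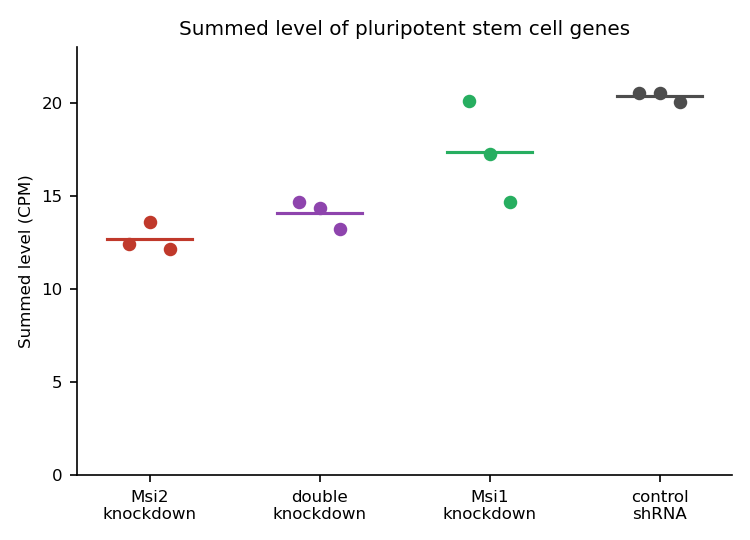
Summed level of 15 genes of pluripotent stem cells, in CPM, in each library, with the mean of a group as a line. The Msi2 knockdown libraries sit between 12.1 and 13.6 CPM and the control libraries between 20.04 and 20.5 CPM, and the double and Msi1 knockdown libraries spread from 13.2 to 20.1 CPM.

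Musashi proteins bind UAG motifs, so the density of UAG in 3′ UTRs (longest annotated per gene, GENCODE 29) was set beside the changes. The median was 9.76 UAG per kb among higher genes, 11.7 among lower genes and 10.5 among all 13476 tested genes with a 3′ UTR of 100 bases or more. The same order was seen for the share of A and U, at 53.4% among higher genes, 58.6% among lower genes and 55.7% among all. It was seen too for the 5 triplets that rearrange the letters of UAG, at 14.45, 15.8 and 15.1 per kb. Spearman's rho across genes of the log2 change with UAG density was -0.0909, with the share of A and U -0.0972, and with the rearranged triplets -0.0971, so the value for UAG was no larger than those for composition. Genes are not independent replicates, and these values are descriptions.

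The Msi2 knockdown was also tested directly against the Msi1 knockdown. These groups differ in shRNA, in virus colour and in the sort, so a difference cannot be assigned to the 2 proteins. MSI2 itself averaged 54.0 ± 2.28 CPM in the Msi1 knockdown, against 82.7 ± 3.09 CPM in control. At an adjusted p below 0.05, 3344 genes were higher in the Msi2 knockdown (22.3%) and 2837 lower (18.9%), 41.1% in all. Among genes called in both this comparison and that with control, the highest against Msi1 was UCP2, a mitochondrial carrier, with 21.1, 18.1 and 20.9 CPM in the Msi2 knockdown libraries and 7.13, 5.06 and 5.70 CPM in the Msi1 knockdown libraries (log2 1.75 ± 0.12, edgeR adjusted p = 2.5e-09). CARNMT1, a methyltransferase for carnosine, had 35.3, 33.4 and 35.4 CPM in the Msi2 knockdown libraries and 12.7, 11.4 and 11.7 CPM in the Msi1 knockdown libraries (log2 1.54 ± 0.07). ITFG3 differed by log2 1.46 ± 0.06. In these 3 the distance lay mainly in the Msi1 knockdown, since against control the Msi2 knockdown was higher by only log2 0.43 ± 0.11, 0.40 ± 0.07 and 0.44 ± 0.06. The call of UCP2 against control was lost without control replicate 2 and with thinned libraries.

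After MSI2 (log2 -1.85 ± 0.09), the lowest were the noncoding RNA DANCR, with 18.2, 19.3 and 20.3 CPM in the Msi2 knockdown libraries and 51.9, 48.8 and 46.5 CPM in the Msi1 knockdown libraries (log2 -1.35 ± 0.07), and CDH5, the cadherin of endothelium, with 12.2, 12.7 and 12.2 CPM in the Msi2 knockdown libraries and 26.1, 31.7 and 33.6 CPM in the Msi1 knockdown libraries (log2 -1.297 ± 0.08). CDH5 rose against control all the same, by log2 0.97 ± 0.10, while the other 2 tested endothelial markers, PECAM1 and VWF, were not called. NOTCH1, NOTCH2, NOTCH3, TGFBR1 and ACVR2B were higher in the Msi2 than in the Msi1 knockdown, by log2 0.39 ± 0.08, 0.56 ± 0.11, 0.49 ± 0.11, 0.66 ± 0.07 and 1.12 ± 0.10, the call of NOTCH1 being lost with thinned libraries. For chemokines the reverse held in number, with 4 of 24 higher and 8 lower in the Msi2 knockdown, and CSF3 averaged 21.6 ± 1.47 CPM in the Msi2 and 44.5 ± 0.917 CPM in the Msi1 knockdown (log2 -1.04 ± 0.08). CXCL8 was not called between the 2, at log2 -0.05 ± 0.08 (edgeR adjusted p = 0.590). Summed over tested chemokines and cytokines, the Msi1 knockdown had 710 to 773 CPM, the Msi2 knockdown 626 to 689 and control 426 to 471 CPM. For the NF-kB feedback inhibitors the sums were 800 to 838, 723 to 772 and 620 to 636 CPM. For the ER chaperones they were 8153 to 9647, 7362.5 to 8359 and 6326 to 7264 CPM. In these lists both knockdowns thus summed above control.

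The same Msi2 shRNA was given to Msi1 knockdown cells, and none of those 6 libraries is in the comparison with control. There MSI2 stood at 11.1, 12.2 and 12.02 CPM in the double knockdown libraries, against 52.1, 56.5 and 53.4 CPM in the Msi1 knockdown libraries (log2 -2.200 ± 0.09). With 4486 genes higher (29.9%) and 3933 lower (26.2%), 56.0% of genes were called. With GC content and length corrected for, the counts were 5543 and 3204. Of the 2501 genes higher in the Msi2 knockdown, 1104 were also higher here (44.1% of them, 24.6% of the 4486), and 444 (17.8%) were lower. Of the 2044 lower genes 749 were also lower here (36.6% of them, 19.0% of the 3933), and 337 (16.5%) were higher. Set beside the shares of all genes called, genes of the same direction were more frequent than 29.9% and 26.2%, and those of the opposite direction less frequent, and across all tested genes the 2 changes correlated with Spearman's rho = 0.214. Of the 107 and 125 genes that changed by 2-fold or more, 45 (42.1%) and 58 (46.4%) were called in the same direction.

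The largest changes came back only in part, and many of these levels already differed from control with the Msi1 shRNA alone. Among the rises SLC2A3 had 133, 129.8 and 136 CPM in the double knockdown libraries and 92.6, 114 and 109 CPM in the Msi1 knockdown libraries (log2 0.33 ± 0.08), and CD68 49.3, 45.8 and 45.9 CPM in the double knockdown libraries and 33.7, 37.6 and 40.1 CPM in the Msi1 knockdown libraries (log2 0.34 ± 0.07). Both were higher with the Msi1 shRNA alone than in control, at 105 ± 11.3 CPM, against 45.98 ± 4.80 CPM in control, for SLC2A3 and 37.1 ± 3.21 CPM, against 15.97 ± 1.16 CPM in control, for CD68. ADAMTS4 was not called here, at log2 0.16 ± 0.09, nor was NES, at 27.2 ± 1.43 CPM in the double and 27.4 ± 1.42 CPM in the Msi1 knockdown, and MMP14 was lower, at log2 -0.73 ± 0.13. With GC content and length corrected for, ADAMTS4 was called higher (log2 0.39). Among the falls PRODH, SUPT16H and ALDH1L2 fell again, at log2 -0.51 ± 0.13, -0.76 ± 0.06 and -0.65 ± 0.10. With thinned libraries the calls of CD68 and PRODH in this pair of groups were lost. FOS was not called, with 5.98, 5.55 and 7.07 CPM in the double knockdown libraries and 5.40, 5.34 and 5.08 CPM in the Msi1 knockdown libraries (log2 0.23 ± 0.13).

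Whether the change depended on the Msi1 shRNA was tested with an interaction term, the log2 change of double over Msi1 knockdown minus that of Msi2 knockdown over control. It was called for 3192 genes with a positive and 2866 with a negative term, 40.3% of those tested. MSI2 was not called (interaction log2 0.26 ± 0.12, edgeR adjusted p = 0.0925), but it passed with GC content and length corrected for (0.47), with thinned libraries (0.59) and without Msi2 knockdown replicate 2 (0.37). Each of the 13 large rises described had a negative term that passed, the furthest from 0 being that of CFB at -2.09 ± 0.18. These genes were picked for the size of one of the 2 changes in the term, which biases it away from 0. Counts of members per list are given side by side, without a test of the difference. The ER chaperones, with 18 of 32 higher in the Msi2 knockdown against control, had 4 higher and 23 lower in the double against the Msi1 knockdown. Their sum in the Msi1 knockdown was already above control, as given above. Other lists with more rises than falls against control also had more falls than rises there. Matrix proteases had 4 of 29 higher and 15 lower, and MHC and checkpoint genes 1 of 27 and 18. Integrins and laminins had 0 of 28 and 19, and axon guidance 5 of 46 and 20. The shares of all tested genes were 29.9% and 26.2%. Chemokines and cytokines had 9 of 24 higher and 3 lower. Cytosolic ribosomal proteins, with 0 higher and 3 lower in the Msi2 knockdown, had 51 of 65 higher and 0 lower in the double against the Msi1 knockdown, or 24 higher without Msi1 knockdown replicate 2. G2 and mitosis genes had 35 of 38 higher and 0 lower there, beside 19 higher and 3 lower in the Msi2 knockdown against control.

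**Figure D5:**
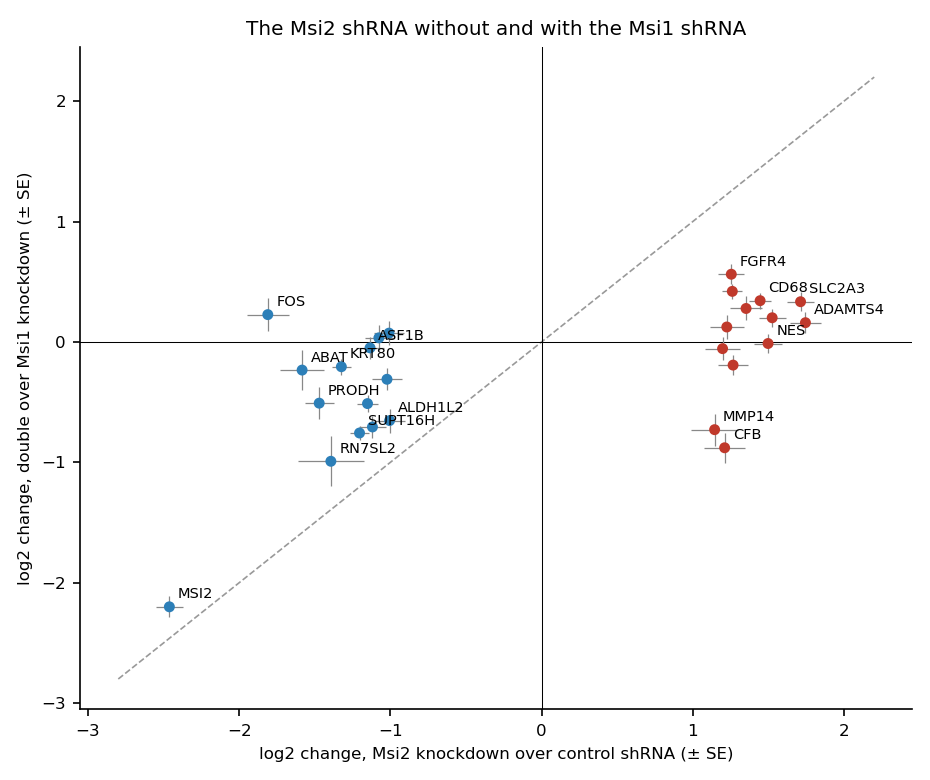
log2 change of the Msi2 shRNA with the Msi1 shRNA present (double over Msi1 knockdown, vertical axis) against that without it (Msi2 knockdown over control, horizontal axis) for 27 of the largest changes, with standard errors and a dashed line of equality. MSI2 lies near the line, at -2.46 without and -2.20 with the Msi1 shRNA, and most rises lie near 0 on the vertical axis.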

How the data were processed

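RNA of 12 MIA PaCa-2 libraries was analysed, 3 in each of 4 groups. The authors deposited estimated counts per gene as whole numbers, unscaled between libraries. The submitters' processing notes name kallisto 0.42.1, CASAVA 1.4 and hg19, without their roles. Neither the transcript set, the strand setting nor the way of summing to genes is given in the sources used here. Estimated counts share reads among similar transcripts, so near-identical genes are uncertain.

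Genes were kept by edgeR's filterByExpr (minimum count 10) and scaled by TMM, and 1 mean per group was fitted to all 12 libraries with edgeR 4.0.16 (robust quasi-likelihood, 8 residual degrees of freedom, limma 3.58.1, R 4.3.3). p-values are two-sided and adjusted by Benjamini-Hochberg over all 15021 tested genes. CPM are TMM-scaled, errors of log2 changes are SE and of means SD over 3 libraries. A single gene on its own cannot go below p = 0.1 in an exact permutation test of 3 against 3. The script was tested on simulated data. Alternatives were the 2 compared groups alone, RLE size factors, no filter, a filter of 5 CPM, correction for GC content and length, thinning to 10948191 counts, leaving out each library, DESeq2 1.42.0, and the replicate number as a block. Same-numbered control and Msi2 knockdown libraries deviated together (r = 0.184, 0.683 and 0.412, from the data, since the labels do not tie numbers to a day or batch), so a block within these 2 groups was added after seeing the data. The number was an uneven guide, since control replicate 1 had r = 0.214 with Msi2 knockdown replicate 3. In other groups same-numbered pairs went either way. Replicate 2 of control and of the Msi1 knockdown had r = 0.590, and replicate 3 of the Msi1 and Msi2 knockdowns r = -0.538.

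Named genes were MSI2, MSI1, the 14 largest rises and falls (adjusted p below 0.05, 10 CPM or more in the higher group, no overlap), the 5 largest each way at 200 CPM or more, the 4 highest and 4 lowest against the Msi1 knockdown, and up to 4 members a list by smallest p, plus members whose role is described. Some of these are not reported here. A gene outside this rule was chosen after its values were seen. Members and lists were chosen with earlier results of these data known. All 1514 entries of the lists matched the table.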

Additional observations from a re-analysis of the deposited data

Results flagged for a closer look

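The change with the Msi2 shRNA differed between cells without and with the Msi1 shRNA for 24 of the 28 genes looked at, which were MSI1 and 13 of the largest rises and the 14 largest falls, MSI2 among the falls. The test was edgeR's interaction term with Benjamini-Hochberg adjustment, given as the log2 change with the Msi1 shRNA present minus that without it (± SE). For all genes tested 40.3% passed. The genes were chosen for a large change in cells without the Msi1 shRNA, which is 1 part of the term, so a term of the opposite sign is favoured by the choice.

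Among genes that rose, the term was negative for CFB (-2.09 ± 0.18), MMP14 (-1.87 ± 0.20), ADAMTS4 (-1.59 ± 0.14), NES (-1.51 ± 0.12), VGF (-1.46 ± 0.13) and SLC2A3 (-1.38 ± 0.12). It was closer to 0 for IRAK2 (-1.32 ± 0.12), STC1 (-1.253 ± 0.15), CD68 (-1.10 ± 0.10), ULBP2 (-1.10 ± 0.15), ACVR2B (-1.07 ± 0.14), ZDHHC18 (-0.84 ± 0.09) and FGFR4 (-0.69 ± 0.12). The adjusted p of these 13 ran from 3.6e-07, of NES, to 3.2e-04, of FGFR4. In 5 of the 13 the change with the Msi1 shRNA present was itself negative. Each of the 13 averaged above control with the Msi1 shRNA alone, though ACVR2B and FGFR4 only slightly and with overlapping libraries. Levels are given above for SLC2A3, CD68, ADAMTS4, MMP14, VGF, ACVR2B and FGFR4. The difference between the Msi1 knockdown and control was not tested.

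Among genes that fell, the term was positive for FOS (2.04 ± 0.19), ABAT (1.35 ± 0.23), KRT80 (1.12 ± 0.09), TP53INP1 (1.11 ± 0.14), ASF1B (1.09 ± 0.13) and CEP19 (1.08 ± 0.14). It was positive as well for PRODH (0.96 ± 0.16), CHCHD10 (0.71 ± 0.13), THUMPD1 (0.64 ± 0.10), SUPT16H (0.45 ± 0.08) and STS (0.41 ± 0.13), the last with an adjusted p of 0.0164. With thinned libraries the terms of ABAT, STS and ULBP2 no longer passed, at 0.83, 0.37 and -0.80. The terms of MSI1, RN7SL2 and ALDH1L2 did not pass, at -0.50 ± 0.21, 0.40 ± 0.30 and 0.35 ± 0.14, with adjusted p of 0.0655, 0.302 and 0.0519. The term of ALDH1L2 passed in 8 other settings (edgeR adjusted p of 0.00406 to 0.0494), which were RLE size factors, no filter, GC content and length corrected for, the replicate block, and leaving out double knockdown replicate 1, Msi1 knockdown replicate 3 or Msi2 knockdown replicate 1 or 2. That of MSI1 passed in 4 (edgeR adjusted p of 0.0322 to 0.0435), the replicate block and leaving out double knockdown replicate 1, Msi1 knockdown replicate 1 or Msi2 knockdown replicate 2. The term of MSI2 is given above with the settings in which it passed.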

How the results depend on the processing

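The 4 counts of called genes kept within 1.5 times of their main values in 57 of 62 alternative fits. Thinning all libraries to 10948191 counts left 1938 genes called in the Msi2 knockdown against control in place of 4545, 2953 against the Msi1 knockdown in place of 6181, 4193 in the double against the Msi1 knockdown in place of 8419, and 2763 interaction terms in place of 6058. Leaving out 1 library at a time gave 3013 to 4249 calls in the main comparison (3013, 1646 higher and 1367 lower, without control replicate 1), 4841 to 6393 against the Msi1 knockdown, 6415 to 8876 in the double against the Msi1 knockdown and 4379 to 7090 for the interaction. The cause of the lower count without control replicate 1 was not tested. With the replicate block the counts were 4970, 6694, 8727 and 6546, and with the block within the 2 compared groups the main count was 6088 (3181 higher and 2907 lower). Calls that the block within the 2 groups changed for genes and lists are given beside them, and it changed no other call of a named gene. DESeq2 called 2324 genes higher and 2040 lower against control. Across all alternatives of the log2 changes of named genes against control, 3174 values kept their direction and side of the threshold, 38 no longer passed, 11 newly passed and 0 changed direction. Where edgeR called 0 members of a list in one direction, an unadjusted p under 0.05 was reached by 2 MHC and checkpoint genes (lower), 1 metallothionein or zinc transporter (lower) and 0 members of the other 3 lists, and DESeq2 called 1, 0 and 0. Depth limits the low levels: control replicate 3 had 10948191 counts and 7.6% of genes under 1 CPM were called, against 39.1% of those above 100 CPM.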

Other observations

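Counts for gene groups not described above can be read beside the 16.7% of all tested genes that were higher and the 13.6% that were lower. Metallothioneins, which bind zinc and copper, and zinc transporters had 4 of 10 higher and 0 lower. MT2A had 772, 698 and 878 CPM in the knockdown libraries and 458, 377 and 519 CPM in the control libraries (log2 0.80 ± 0.10), with no overlap, and MT1A rose by log2 0.88 ± 0.10. These genes are close in sequence, so their reads can be shared. NRF2 targets had 1 of 24 higher and 4 lower, or 2 and 9 with the replicate block within the 2 groups. AKR1C1, which reduces steroids and has near-identical relatives, had 114, 109 and 123.2 CPM in the knockdown libraries and 57.0, 59.3 and 60.1 CPM in the control libraries (log2 0.98 ± 0.07), and PGD, of the pentose phosphate pathway, fell, at log2 -0.47 ± 0.07. Of 36 lysosomal genes 9 rose (25%) and 6 fell (16.7%), with the cathepsins CTSL and CTSB higher by log2 0.47 ± 0.07 and 0.48 ± 0.08 and the sialidase NEU1 lower by -0.43 ± 0.09. Autophagy genes had 7 of 26 higher and 3 lower, or 2 and 2 with thinned libraries. Apoptosis regulators had 11 of 33 higher and 3 lower, with opposing roles among the rises. CFLAR and MCL1, which hold cell death back, rose by log2 0.40 ± 0.06 and 0.43 ± 0.07, and BAK1, which promotes it, by 0.48 ± 0.07, while CASP2, a caspase, fell, at log2 -0.46 ± 0.07.

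Counts of G1 regulators, chromatin regulators and interferon response genes lay near the shares of all genes. G1 regulators had 2 of 19 higher (10.5%) and 3 lower (15.8%), with CDK6 at 83.7 ± 5.39 CPM in the knockdown and 53.4 ± 3.30 CPM in control (log2 0.66 ± 0.08) and CCND1 lower by log2 -0.32 ± 0.07. Chromatin regulators had 8 of 38 higher (21.1%) and 4 lower (10.5%), led by TET3, which oxidises methylated cytosine, and the demethylase KDM6B, at log2 0.70 ± 0.07 and 0.67 ± 0.07. Interferon response genes had 7 of 43 higher (16.3%) and 5 lower (11.6%), with BST2 and IRF1 higher by log2 0.60 ± 0.10 and 0.42 ± 0.07 beside IFITM1, and without control replicate 1 only 1 was lower. Integrated stress response genes had 8 of 22 higher (36.4%) and 4 lower (18.2%), with TRIB3 higher by log2 0.51 ± 0.08. Only 3 or 4 members were higher when any 1 library other than Msi2 knockdown replicate 2 was left out. Further lists were fatty acid synthesis (4 of 20 higher, 4 lower), translation factors (4 and 4 of 46), nuclear genes of oxidative phosphorylation (6 and 2 of 48), mitochondrially encoded genes (0 and 2 of 13), epithelial genes (5 and 3 of 17) and mesenchymal genes (4 and 3 of 12). With the replicate block within the 2 groups oxidative phosphorylation had 11 higher and 8 lower, translation factors 9 and 13, mitochondrially encoded genes 0 and 7, and fatty acid synthesis 7 and 5, and without control replicate 1 oxidative phosphorylation had 1 and 1 and translation factors 1 and 2. Fibroblast markers had COL3A1 higher and DCN lower of 7 tested. COL3A1 had 348, 399 and 359.9 CPM in the knockdown libraries and 225, 253 and 199 CPM in the control libraries (log2 0.70 ± 0.10).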
